A study of Danio rerio with 4 samples.

Results

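The annexin genes anxa1a and anxa2a were followed in eyes of zebrafish with a cut optic nerve. They were found on the array through the accession of each probe, or otherwise through the gene symbol in its name, and they account for 2 of the 12 annexin genes and for 4 of the 20 annexin probes. In all, 5054 named genes were measured with 8253 probes. The array carries 3 probes of anxa1a, with probes 1 and 2 listed under NM_181758.1 and probe 3 under BC053190.1, and 1 probe of anxa2a, listed under AY178796.1. Probes of a gene are numbered from the brightest to the dimmest. Both genes were selected on their injured-over-sham values on these same arrays, so these values are described here without a test.

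Annexins are cytosolic proteins that bind phospholipid membranes when calcium rises, and they act in membrane repair, vesicle traffic and the linking of membranes to actin. In mammals, annexin A1 is known as a glucocorticoid-induced protein that dampens inflammation through formyl peptide receptors. Mammalian annexin A2 forms a complex with the small calcium-binding protein S100A10 and gathers plasminogen and its activators at the cell surface. Both are abundant in mammalian epithelia and macrophages, and neuronal tissue holds less of them.

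Wild-type fish (line zdr, bought from a pet store and kept on a light/dark cycle) were the source of every sample. In the injured fish the eye muscles were cut and the optic nerve was severed with the ophthalmic artery spared, under MS-222 anaesthesia, and in sham-operated fish the muscles alone were cut. Lens and sclera were removed before RNA was extracted at 3, 24 or 168 h, and each pool holds RNA of several fish, a number the labels do not give. Each of 9 arrays compared 1 injured pool with 1 sham pool, 3 arrays per time, which the labels call biological replicates, and 2 further arrays compared pools of unoperated fish, with 1 pool present on both of them. The age and sex of the fish are not given in the sources used here.

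All differences below are log2 of injured over sham. Their direction rests on the array names, which put sham RNA in Cy5 on 6 arrays and injured RNA in Cy5 on 3 (3 h array 3, 24 h array 3 and 168 h array 2), whereas the labels name Cy5 for injured RNA throughout. Across probes, the authors' deposited table correlated with the ratios of the scanner files at r = 0.847 (3 h), 0.845 (24 h) and 0.823 (168 h) when the ratios were turned by the array names, and at r = -0.432, -0.482 and -0.397 when they were taken as plain Cy5 over Cy3. With the dyes as the labels have them, anxa2a would stand at 0.61, -0.62 and -0.48 at the successive times and anxa1a probe 1 at -0.72, -1.18 and -1.64, with no dye term possible.

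A limit was set for each channel of each array at the 95th percentile of its 544 empty positions, and a spot with a brighter foreground counted as above it. Between 17.2% and 44.8% of the zebrafish probes passed this limit in Cy5 on the injured-against-sham arrays and between 38.7% and 71.9% in Cy3, and 3306 of 14067 passed in at least 1 channel on all 9 arrays. Of the 4 anxa1a and anxa2a probes, 2 did so, namely anxa1a probe 1 and the anxa2a probe. As a check of the tissue, 7 of 8 photoreceptor markers were measured and 5 were above the limit on all 9 arrays, whereas none of 5 measured lens markers was. Lens markers were not absent, with crygm2d1 above the limit on 6 arrays and crygs2 on 5. Their median log2 difference was 1.37 at 3 h, -0.11 at 24 h and -0.09 at 168 h. Their summed reading at 3 h ran from 1931 to 14170 in injured and from 1651 to 2971 in sham pools, which overlapped. Whether lens remained in some pools was not tested. In pooled eye RNA, a change in the number of cells that hold a transcript cannot be told apart from a change in the RNA per cell.

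anxa2a was brighter in injured than in sham RNA on every array at 24 h and at 168 h, by an average of 2.30-fold and 2.63-fold, and showed no common direction at 3 h. On the scanner scale, before any normalisation, the injured and sham spots read 890 and 1131 on array 1, 985 and 1247 on array 2 and 1475 and 994 on array 3 at 3 h. At 24 h the injured and sham readings were 2339 and 1323 on array 1, 5556 and 1008 on array 2 and 1823 and 1485 on array 3. At 168 h they were 3387 and 899, 4946 and 1980, and 2546 and 784. Before normalisation the lowest injured reading at 24 h and at 168 h was thus above the highest sham reading of the same time, whereas at 3 h they overlapped. This is a description, since anxa2a was chosen on its injured-over-sham values, and the share of all probes that separate so was not counted. On the control arrays, with unoperated pools in both channels, the Cy5 and Cy3 readings were 697 and 987 on array 1 and 780 and 1218 on array 2, which lay within or just below the range of the sham pools. No anxa2a spot contained saturated pixels, and all were above the limit of their channel.

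**Figure D1:**
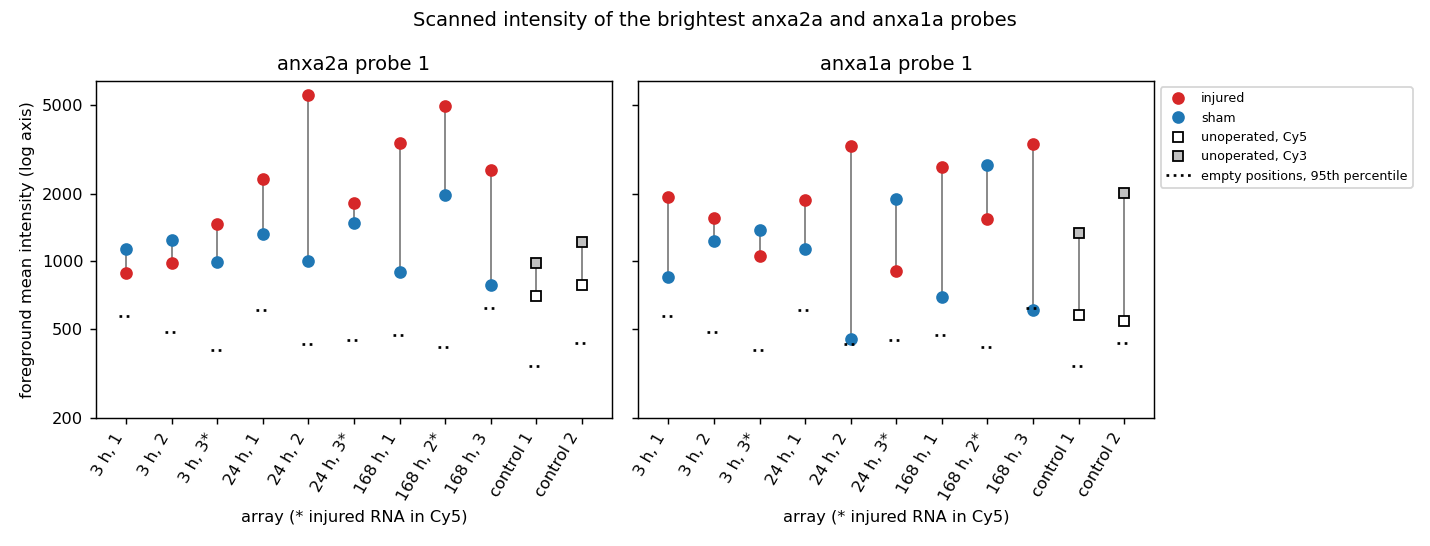
Foreground mean intensity (log axis, scanner units) of the anxa2a probe and of anxa1a probe 1 on each of the 11 arrays, before normalisation. A line joins the 2 channels of an array, red is injured, blue is sham, squares are unoperated pools, an asterisk marks injured RNA in Cy5, and the dotted mark is the higher of the 2 channel limits from the empty positions. For anxa2a the injured point lies above the sham point on every array at 24 and 168 h, with 5556 against 1008 on 24 h array 2, whereas for anxa1a the Cy3 point is the higher one on every array.

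After normalisation and removal of the dye effect, the log2 difference for anxa2a was -0.55, -0.28 and 0.64 on the arrays at 3 h, 0.81, 2.10 and 0.70 at 24 h, and 1.86, 1.20 and 1.13 at 168 h. The fitted values were -0.06 ± 0.36 at 3 h, 1.20 ± 0.36 at 24 h and 1.40 ± 0.36 at 168 h (standard error from 1 fit of all 9 arrays, n = 3 arrays per time). The spread between the arrays of a time was 0.62, 0.78 and 0.40 (SD). The fitted values at 24 and 168 h were larger than this spread and that at 3 h was smaller in size. This is a description, since anxa2a was chosen for these values. At 3 h, 2 arrays were below 0 and the array with injured RNA in Cy5 was above it. The arrays at 168 h did not overlap with those at 3 h, and neither did those at 24 h, while the arrays at 24 h and 168 h overlapped. The share of all probes whose arrays separate between times was not counted. From 3 to 24 h the fitted value differed by 1.26 ± 0.50, from 3 to 168 h by 1.46 ± 0.50 and from 24 to 168 h by 0.20 ± 0.50.

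The value at 24 h leaned on array 2, without which it stood at 0.75. Leaving out any 1 of the 9 arrays gave 0.75 to 1.64 at 24 h, 1.16 to 1.57 at 168 h and -0.67 to 0.18 at 3 h, where the lowest value was that without 3 h array 3. Within each array, anxa2a exceeded 90.2%, 99.8% and 91.6% of the zebrafish probes at 24 h and 99.5%, 97.6% and 93.3% at 168 h, against 16.9%, 31.6% and 89.8% at 3 h. Over all probes, 0.626% had a fitted difference over 1 at 3 h, 0.519% at 24 h and 1.44% at 168 h, and anxa2a was among them at 24 and 168 h. These ranks and shares describe a gene chosen for the same values, so they are not a test of it. All 3 arrays were above 0 for 14.4% of the probes at 24 h and for 15.4% at 168 h, so the shared sign alone is common on these arrays. The 441 zebrafish probes of the same print block had medians between -0.07 and 0.12 on the 9 arrays. Probes of like brightness had medians between -0.14 and 0.03, which the loess normalisation holds near 0 by design.

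On the control arrays the log2 ratio of anxa2a was 0.12 and -0.18, or 0.00 and -0.30 with the dye effect removed, which is less than on any array at 24 or 168 h. Since anxa2a was chosen on its injured-over-sham values, this contrast too is a description. The dye effect itself was 0.12 ± 0.22 (Cy5 over Cy3; adjusted p = 0.754 in limma). The authors' deposited table gives -0.055, 1.13 and 1.18 for this probe at the successive times, and 0.47 in its control column, the scale and direction of which are unknown.

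**Figure D2:**
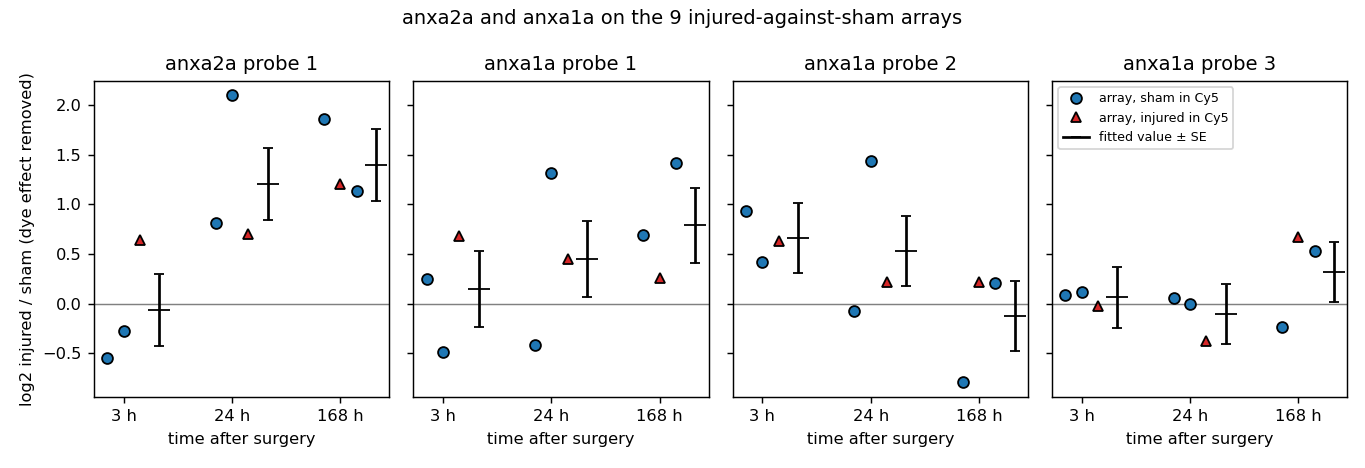
Log2 injured over sham, with the dye effect removed, for the anxa2a probe and the 3 anxa1a probes at 3, 24 and 168 h. Circles are arrays with sham RNA in Cy5, triangles arrays with injured RNA in Cy5, and the bar beside them is the fitted value with its standard error. The anxa2a arrays lie between 0.70 and 2.10 at 24 h and between 1.13 and 1.86 at 168 h, anxa1a probe 1 is above 0 on all 3 arrays at 168 h alone, and anxa1a probes 2 and 3 were near the limit of the empty positions on most arrays.

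For anxa1a the bright probe showed a smaller difference. With the dye effect removed it was above 0 on all 3 arrays at 168 h (1.72-fold on average) and of mixed sign earlier. The scanner readings of anxa1a probe 1 for injured and sham RNA were 1937 and 855, 1564 and 1231, and 1056 and 1385 on arrays 1, 2 and 3 at 3 h. At 24 h they were 1870 and 1140, 3280 and 450, and 904 and 1889, and at 168 h they were 2645 and 695, 1549 and 2696, and 3348 and 604. On every one of these arrays the brighter channel was Cy3, whichever RNA it held, so that injured and sham readings overlapped at each time. The same held for the unoperated pools, with 575 in Cy5 and 1341 in Cy3 on control array 1 and 541 and 2016 on control array 2. The sham reading of 450 on 24 h array 2 was just above its limit of 427.

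The dye effect on anxa1a probe 1 was -1.03 ± 0.23 (Cy5 over Cy3; adjusted p = 0.00937 in limma), and it was larger in size than the injured-over-sham value of this probe at any time. Such a dye effect passed the test for 11.1% of all probes and for 2 of the 20 annexin probes, the other being anxa4 probe 1 (-1.46 ± 0.18, adjusted p = 0.000122 in limma), which was above the limit in Cy5 on no array. The call for anxa1a was lost without 24 h array 3 (-1.03, adjusted p = 0.0519 in limma) and without 168 h array 2 (-0.83, adjusted p = 0.106 in limma), which leave 2 arrays with injured RNA in Cy5.

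With that effect removed, anxa1a probe 1 stood at 0.25, -0.48 and 0.68 on the arrays at 3 h, at -0.42, 1.32 and 0.44 at 24 h, and at 0.69, 0.26 and 1.41 at 168 h. The fitted values were 0.15 ± 0.38, 0.45 ± 0.38 and 0.79 ± 0.38 (SE, n = 3 arrays per time). At 3 and 24 h the arrays lay on both sides of 0, and the arrays of all 3 times overlapped. Array 2 at 24 h was the high one for anxa1a as it was for anxa2a, and without it the 24 h value stood at 0.01. At 168 h the value was 0.47 without array 3 and 1.25 without array 2. Before the dye correction 168 h array 2 stood at -0.77, so its sign rests on a dye effect that this array helps to set. Between times the fitted value differed by 0.30 ± 0.53 (3 to 24 h), 0.64 ± 0.53 (3 to 168 h) and 0.34 ± 0.53 (24 to 168 h).

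The size of the anxa1a difference also moved with the processing. Without a dye term it was 0.49, 0.79 and 1.13 at the successive times, where 2 of 3 arrays per time had injured RNA in Cy3, the brighter channel. Without background correction it was 0.49 at 168 h, and the authors' deposited table gives 0.43, 0.78 and 0.77. On the control arrays the log2 ratio was -0.71 and -2.07, and with the dye effect removed it was 0.32 and -1.05. The difference between the unoperated channels of control array 2 was therefore larger in size than the fitted difference between injured and sham pools at 168 h. The parts of the pools and of the array in that difference cannot be told apart here. The Cy5 pool, present on both control arrays, had a dye-corrected log2 level of 9.85 on array 1 and 8.96 on array 2.

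The other anxa1a probes gave no usable comparison at most times. Probe 2 read between 190 and 521 on the injured-against-sham arrays and passed the limit on 2 of 9 of them, both at 168 h. There it was above the limit in sham RNA alone on array 1 (521, with 396 in injured RNA) and in injured RNA alone on array 2 (432, with 387 in sham RNA), so no array gave a ratio of a pair of measured spots. Probe 3 read between 187 and 486 and passed the limit on 3 of 9 arrays. It did so in injured RNA alone on 3 h array 2 (486, with 451 in sham RNA) and in sham RNA alone on 24 h array 3. Both spots were above the limit on 3 h array 3 alone, with a log2 difference of -0.02. At 3 and 24 h for probe 2, and at 168 h for probe 3, no injured or sham spot was above the limit, so no fold is given.

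With anxa1a probes 2 and 3 mostly at the level of the empty positions, these data do not show whether they follow probe 1. Between anxa1a probe 1 and anxa2a, both above the limit on all 9 arrays, the root mean square difference of the log2 values was 0.760, and they had the same sign on 7 of 9 arrays.

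Levels in each pool were read from the single channels of all 11 arrays after normalisation between arrays, on the log2 intensity scale with the dye effect removed. For anxa2a the unoperated pools stood at 9.67 ± 0.13 (SD, n = 3 pools). The sham pools stood at 9.78 ± 0.38 at 3 h, 10.23 ± 0.25 at 24 h and 9.95 ± 0.52 at 168 h, and the injured pools at 9.71 ± 0.57, 11.42 ± 0.56 and 11.34 ± 0.46 (SD, n = 3 pools each). From low to high the order was unoperated, injured 3 h, sham 3 h, sham 168 h, sham 24 h, injured 168 h and injured 24 h. The one gap in this order lay between sham 24 h (9.99 to 10.48) and injured 168 h (10.85 to 11.77), and all other neighbours overlapped. Injured pools at 24 h (10.99 to 12.05) did not overlap with any unoperated or sham pool, which is a description, since anxa2a was chosen for this difference. How many of all probes have pools that separate so was not counted.

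The anxa1a probe 1 levels spanned a narrower range. The unoperated pool on both control arrays entered as the mean of its readings, here 9.85 and 8.96. Unoperated pools stood at 9.60 ± 0.29, sham pools at 9.88 ± 0.36, 9.91 ± 0.45 and 9.76 ± 0.49 and injured pools at 10.01 ± 0.52, 10.34 ± 0.50 and 10.53 ± 0.10 at 3, 24 and 168 h (SD, n = 3 pools each). Every pair of neighbours in the order of these levels overlapped. The injured pools at 168 h (10.42 to 10.60) lay above the sham pools of that time (9.26 to 10.23) and above the unoperated pools (9.40 to 9.93). This too is a description, since anxa1a was chosen on its injured-over-sham values, and the share of all probes that separate so was not counted. The separation rests on the dye correction. Before it, 168 h array 2 had a level of 10.01 in injured and 10.78 in sham RNA.

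The sham operation, in which the eye muscles are cut, was compared with no operation in a single-channel fit. This fit counted the unoperated pool on both control arrays as a separate sample on each. Its standard errors and p-values thus rest partly on repeat readings of 1 pool. The sham-over-unoperated difference of anxa2a was 0.13, 0.57 and 0.30 at 3, 24 and 168 h, each ± 0.42 (adjusted p = 0.997, 0.9997 and 0.9997 in limma). That of anxa1a probe 1 was 0.34, 0.36 and 0.21, each ± 0.45 (adjusted p = 0.997, 0.9997 and 0.9997 in limma). No probe on the array passed this test at any of the times (0% of 14062), and 6.22%, 5.35% and 5.14% had an unadjusted p under 0.05. The sham pools are those of the injured-over-sham comparison, and 3 unoperated pools on 2 arrays limit the precision, so differences of these sizes between sham and unoperated eyes are not shown to be absent. Without control array 1 or 2 the fit called 89 and 125 probes at 3 h, and neither anxa2a nor anxa1a probe 1 passed.

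**Figure D3:**
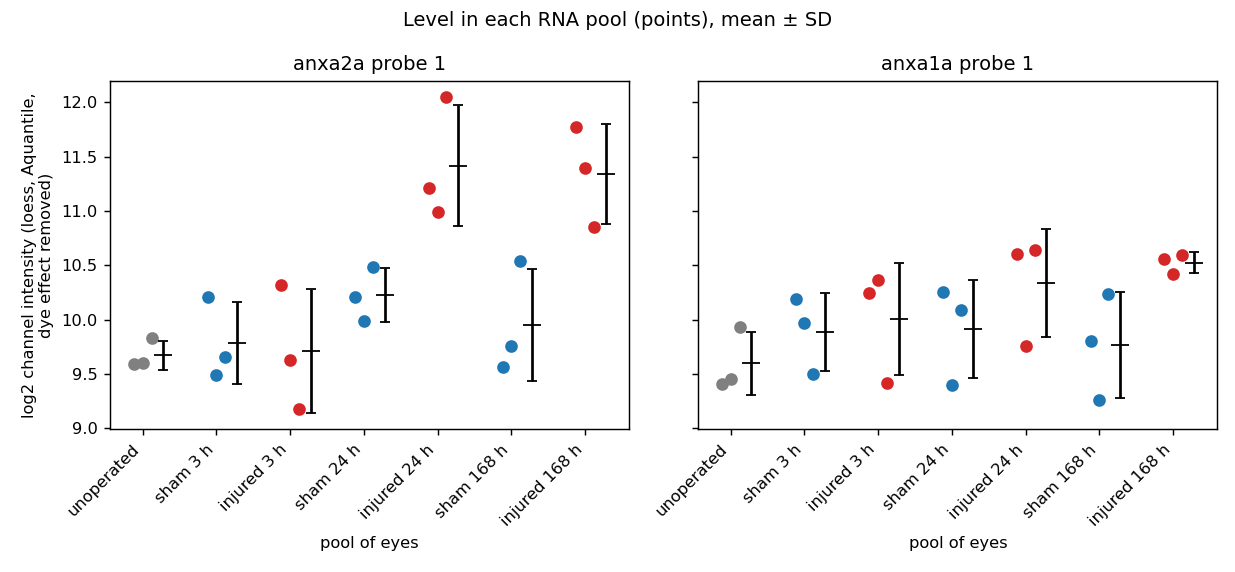
Level of the anxa2a probe and of anxa1a probe 1 in each RNA pool, as log2 channel intensity after loess and Aquantile normalisation with the dye effect removed. Points are pools, 3 per group, and the bar beside them is the mean with its SD. The injured anxa2a pools at 24 and 168 h lie between 10.85 and 12.05, above all sham and unoperated pools, which reach 10.54.

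The remaining annexin family was represented by 16 probes of 10 genes (anxa1c, anxa2b, anxa4, anxa5b, anxa6, anxa11a, anxa11b, anxa13, anxa13l and anxa14). None of the 16 passed the test at 3, 24 or 168 h (smallest adjusted p = 0.9998, 0.987 and 0.404 in limma), and 0% of all probes were called at each time. An unadjusted p under 0.05 was found for 1, 3 and 2 of the 16 probes, beside 4.48%, 5% and 7.83% of all probes. The median over the 16 probes was -0.02, 0.06 and 0.12, beside 0.00, -0.01 and 0.00 over all probes, and 8, 11 and 10 of the 16 lay above 0. All 3 arrays were above 0 for 3, 4 and 4 of the 16, beside 13.9%, 14.4% and 15.4% of all probes. Of the 16 probes, 3 were above the limit in some channel on all 9 arrays and 3 on none.

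Single annexins with an unadjusted p under 0.05 were few. At 3 h, anxa13l stood at 0.95 ± 0.34 (1.14, 0.72 and 0.99 on the arrays), with sham RNA above the limit on 1 of the 3 arrays. At 24 h, anxa1c probe 1 stood at 0.73 ± 0.34 (1.68, 0.26 and 0.26). Its sham RNA was above the limit on 1 of the 3 arrays, and not on array 1 (470, with a limit of 605). At the same time anxa5b probe 2 stood at 0.89 ± 0.40 (0.84, 1.73 and 0.09), with sham RNA above the limit on 2 of the 3 arrays. The anxa2b probe stood at -0.80 ± 0.35 (-0.15, -1.80 and -0.43), although it was above the limit on 1 of 9 arrays. By name anxa1c and anxa2b are the closest relatives of anxa1a and anxa2a on the array, and anxa2b lay on the other side of 0 from anxa2a on all 3 arrays at 24 h. At 168 h, anxa4 probe 2 stood at 1.28 ± 0.36 (2.25, 0.57 and 1.02; adjusted p = 0.404 in limma), with sham RNA above the limit on 1 of the 3 arrays, and the authors' deposited table gives 0.497. The other anxa4 probe was above the limit in Cy5 on no array, so 1 side of each of its ratios was not measured. The sixth, anxa6 probe 1 at 168 h, was above the limit on no array. Without background correction the values were smaller, at 0.31 for anxa13l, 0.19 for anxa1c probe 1, 0.50 for anxa5b probe 2 and 0.52 for anxa4 probe 2. The authors' deposited table likewise gives 0.314 for anxa13l and 0.205 for anxa1c probe 1.

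Among the other annexins, anxa5b probe 1 was above the limit in both channels on all 9 arrays. Annexin A5 is known in mammals for binding phosphatidylserine, the lipid exposed on dying cells. Its zebrafish relative stood at 0.02 ± 0.32, 0.09 ± 0.32 and 0.45 ± 0.32 at 3, 24 and 168 h, with 2 of 3 arrays above 0 at 24 and 168 h.

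**Figure D4:**
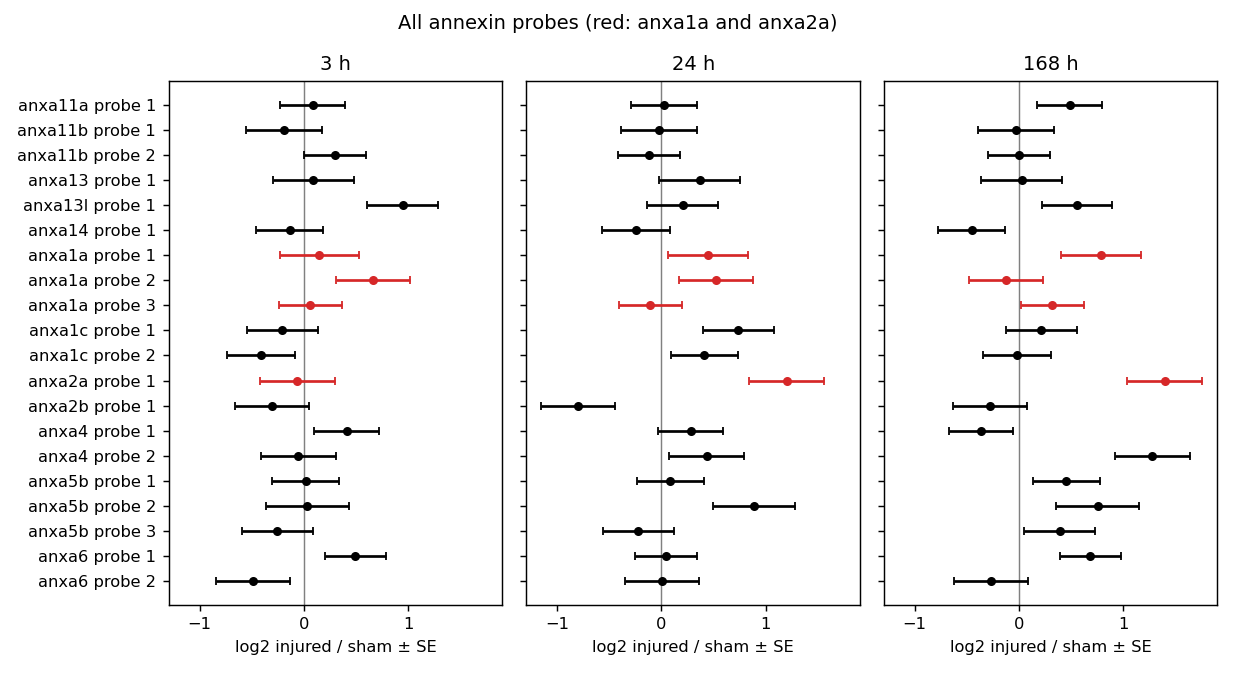
Fitted log2 injured over sham with its standard error for all 20 annexin probes at 3, 24 and 168 h, with anxa1a and anxa2a in red. At 24 and 168 h the anxa2a probe lies at 1.20 and 1.40, and the other annexin probes reach 0.89 and 1.28.

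Partners and pathway genes of annexins were measured for 6 of 20 listed genes. None had an unadjusted p under 0.05 at any time, and the list medians were 0.01, 0.32 and 0.12. The gene for the annexin A2 partner, s100a10b, stood at -0.03 ± 0.41, 0.52 ± 0.41 and 0.47 ± 0.41. Its arrays were of mixed sign at 3 h (-0.84, -0.27 and 1.03) and at 24 h (0.95, 1.21 and -0.60). At 168 h they stood at 0.46, 0.53 and 0.41. The other s100a10b probe, above the limit on 5 of 9 arrays, stood at 0.96, 0.10 and 0.49 and so differed from the brighter one at 3 and 24 h. The gene for plasminogen, plg, stood at 0.05, 0.12 and -0.22 and was above the limit on 4 of 9 arrays. The ictacalcin gene icn, of the S100 family, stood at 0.39, 0.52 and 0.45, each ± 0.47, with arrays on both sides of 0 at every time.

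Of 6 listed glucocorticoid-responsive genes 3 were measured, with medians of 0.12, -0.01 and -0.32. The glucocorticoid receptor gene nr3c1 stood at 0.82 ± 0.32 at 24 h (0.64, 1.38 and 0.44; adjusted p = 0.967 in limma). The receptor's co-chaperone fkbp5, a gene that glucocorticoids induce in mammals, stood at -1.54 ± 0.40 at 168 h (-0.27, -1.97 and -2.38; adjusted p = 0.397 in limma). All arrays at these times were on 1 side of 0 for these genes, and neither passed the test.

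Marker lists of cell types of the eye are given beside these values. The epithelial and corneal list (14 of 16 genes measured) had medians of 0.08, 0.71 and 0.36, and none of its genes passed the adjusted test. With an unadjusted p under 0.05, 1, 4 and 1 of its genes stood above 0 and cldne stood below it at 3 h (-0.71), beside 4.48%, 5% and 7.83% of all probes in either direction. By array its median was -0.22, -0.46 and 0.55 at 3 h, 0.12, 1.09 and 0.45 at 24 h, and 0.88, -0.28 and 0.25 at 168 h. The highest epithelial medians at 24 and 168 h fell on 24 h array 2 and 168 h array 1. There anxa2a and the leukocyte, fibroblast and skeletal muscle medians were also highest for their time. The skeletal muscle medians were 0.16, 0.31 and 0.12 on the arrays at 24 h and 0.40, -0.06 and 0.08 at 168 h. Mueller glia and photoreceptor medians too were highest on array 1 at 168 h. On 168 h array 2 anxa2a stood at 1.20 with the epithelial list at -0.28. Its summed reading ran from 11518 to 29528 in injured and from 6736 to 20508 in sham pools at 24 h, and from 12997 to 22216 and from 6223 to 23614 at 168 h, so the groups overlapped. Its genes krt92, cldne and cldni were above the limit on no array.

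The leukocyte and microglia list (11 of 15 measured) had medians of 0.07, 0.47 and 0.68, with 0.84, 0.49 and 0.44 on the arrays at 168 h. At 168 h 9 of its 11 genes lay above 0, 5 had an unadjusted p under 0.05 (beside 7.83% of all probes), and none passed the adjusted test (smallest adjusted p = 0.397 in limma). Its summed reading at 168 h ran from 13689 to 38377 in injured and from 6735 to 15654 in sham pools. The fibroblast and matrix list (6 of 8 measured) had medians of 0.44, 0.31 and 0.05 and the pigment epithelium list (4 of 5) of -0.45, 0.52 and 0.58. The pigment epithelium median was highest on 24 h array 2 (1.26) and 168 h array 3 (1.30), the arrays of those times on which anxa1a probe 1 was also highest. Its summed reading at 168 h, before normalisation, ran from 4617 to 8863 in injured and from 2579 to 3426 in sham pools, which did not overlap. At 3 h they did not overlap in the opposite direction (3764 to 5069 in injured and 6197 to 16964 in sham pools). How many of all probes separate in this way was not counted. Of the 4 pigment epithelium genes measured, 2 were above the limit on all 9 arrays. None passed the adjusted test (smallest adjusted p = 0.9998, 0.968 and 0.397 at 3, 24 and 168 h in limma). The photoreceptor list, which covers rods and cones, had medians of -0.09, -0.17 and -1.12, with 0.01, -1.45 and -1.24 on the arrays at 168 h. At that time 5 of its 7 genes stood below 0 with an unadjusted p under 0.05, and none passed the adjusted test. Its summed reading at 168 h ran from 42473 to 74716 in injured and from 56911 to 134661 in sham pools. The part of these lists in the anxa1a and anxa2a values was not tested.

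**Figure D5:**
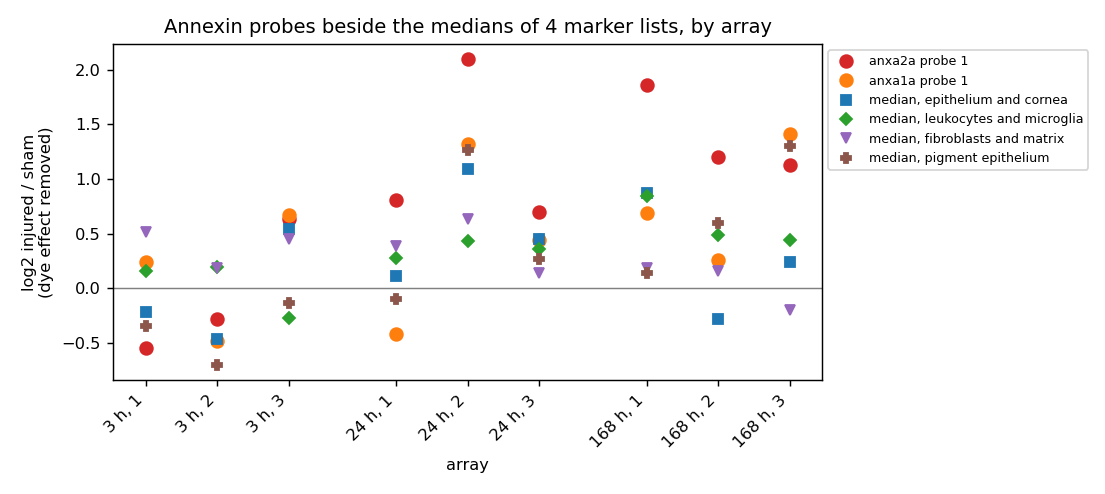
Log2 injured over sham, with the dye effect removed, of the anxa2a probe and anxa1a probe 1 on each of the 9 arrays beside the medians of 4 marker lists. Circles are the annexin probes and the other symbols are list medians. On 24 h array 2 anxa2a stands at 2.10 and the epithelial median at 1.09, and on 168 h array 2 they stand at 1.20 and -0.28.

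The named genes with the pattern closest to anxa2a were sought among 1560 genes above the limit on all 9 arrays, by the root mean square difference over the 9 arrays. They were ppiaa (cyclophilin A; 0.377), eef1a1l1 (translation elongation factor 1 alpha; 0.427), ahcy (adenosylhomocysteinase; 0.467), nme2b.1 (a nucleoside diphosphate kinase; 0.549) and krt8 (keratin 8; 0.550), against a median of 1.30 over all 1560. Their mean differences were 0.05 to 0.24 at 3 h, 0.59 to 1.04 at 24 h and 0.79 to 1.36 at 168 h. Other probes of these genes were not all alike. Those of eef1a1l1 stood at 0.04, 0.67 and 1.01 (above the limit on 9 arrays), -0.31, -0.32 and 0.29 (8 arrays) and -0.16, -0.11 and 0.69 (2 arrays). Those of ahcy stood at 0.24, 0.68 and 0.52 (5 arrays) and at 0.07, 0.10 and -0.27 (2 arrays). A further krt8 probe above the limit on 9 arrays stood at 0.09, 0.69 and 0.87, and its remaining probes ranged from -0.39 to 0.65 at 24 h. Dimmer probes of ppiaa ranged from -0.76 to 0.52 at 24 h. The 1407 brightest probes had medians of -0.01, -0.01 and -0.15. The loess normalisation holds the median at each brightness near 0, so these medians cannot show whether brightness plays a part. In mean brightness ppiaa, eef1a1l1, ahcy, nme2b.1 and krt8 exceeded 97.3%, 97.5%, 88.9%, 95.3% and 96.7% of the zebrafish probes, beside 93.4% for anxa2a. The part of brightness in their likeness was not tested.

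For anxa1a the closest were mkrn2 (a makorin ring finger protein; 0.354), fthl27 (a ferritin heavy chain; 0.398), tcf3a (an E-protein transcription factor; 0.436), cdc14aa (a phosphatase; 0.449) and rpl21 (a large-subunit ribosomal protein; 0.452), against a median of 0.926. Their mean differences were -0.06 to 0.21 at 3 h, 0.32 to 0.59 at 24 h and 0.30 to 0.78 at 168 h. Probes of fthl27 above the limit on all 9 arrays stood at 0.71, 0.33 and 0.68 at 168 h beside 0.72 for the brightest one. Those above it on fewer arrays ranged from -0.38 to 1.47 at 168 h, and the other rpl21 probe stood at 0.09. The lists of closest genes for anxa1a and anxa2a shared no gene. These likenesses are descriptions over 9 arrays that share dyes and pools.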

How the data were processed

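Eyes were measured on 2-colour oligonucleotide arrays, 9 with injured against sham RNA and 2 with unoperated RNA in both channels. Per the file headers, the deposited scanner files give the foreground mean and background median intensity of each of 14784 spots in Cy5 and Cy3, not normalised. The authors also deposited a table of log2 values, 1 for each spot at each time. Limma is named, without a version, per the submitters' processing notes. Per the labels' protocols, amplified RNA was labelled with Cy3 or Cy5.

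Intensities were corrected with normexp (offset 50) and normalised by loess within arrays in limma 3.58.1 (R 4.3.3). One fit gave each probe 3 injury coefficients, signed by dye orientation, and a common dye effect, with 5 residual and 9.99 prior degrees of freedom, and the median standard error was 0.339. P-values were adjusted over all zebrafish probes (Benjamini-Hochberg, 0.05). Those of this fit rest on the spread between arrays, in which differences between pools and differences between hybridisations cannot be told apart. A dye-corrected array value is the log2 ratio of Cy5 over Cy3 minus the dye effect, turned afterwards to injured over sham. Levels came from a separate-channel fit (statmod 1.5.0, Aquantile, intraspot correlation 0.443, 22 channels). The steps were tested on simulated data.

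Probes were named through the GRCz12tu RefSeq table, used for names alone: 7755 by accession, 169 by current and 468 by older symbol (among them anxa1c and anxa2b). A gene on a list is represented by its brightest probe. The rule for named genes took all annexin probes, all annexin genes, partners with an unadjusted p under 0.05, and the 5 genes most like each of anxa1a and anxa2a by root mean square difference. The partners s100a10b, plg and icn, and the dimmest epithelial markers, were added for their role after their values were seen. The 2 genes, the lists and the tests were chosen with earlier results of these data known. Alternatives changed the background correction, normalisation, dye term, dye orientation, filter and arrays used.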

Additional observations from a re-analysis of the deposited data

Results flagged for a closer look

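Among the 20 annexin probes, 2 had all 3 arrays on one side of 0 at 3 h and all 3 on the other side at 24 h. The share of all probes with such a change of sign was not counted, so these 2 are not shown to be more than usual. All 3 arrays were above 0 for 13.9% of all probes at 3 h and for 14.4% at 24 h. The value of anxa11b probe 2 at 24 h minus that at 3 h was -0.414 (0.78, 0.07 and 0.05 on the arrays at 3 h, and -0.19, -0.06 and -0.10 at 24 h), and that of anxa1c probe 2 was 0.823 (-0.95, -0.07 and -0.22, then 0.11, 0.67 and 0.45). The fitted difference between times did not pass the test for either (adjusted p = 0.999 for both in limma, beside 0% of all probes called). The authors' deposited table gives 0.133 and -0.072 for the anxa11b probe at 3 and 24 h, and 0.015 and -0.329 for the anxa1c probe, a change in the opposite direction to the one fitted here. The anxa1c probe was above the limit on 2 of 9 arrays. At 24 h it was above the limit in neither injured nor sham RNA on any array, so its values there compare no measured spots. At 24 h the anxa11b probe was above it in injured RNA on 1 of 3 arrays and in sham RNA on 1.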

How the results depend on the processing

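The direction rests on the array names. With injured RNA in Cy5 on every array, as the labels have it, no dye term can be fitted, and the calls at 3, 24 and 168 h numbered 387, 200 and 401 probes instead of 0, among them 1 other annexin probe at 3 h and 1 at 24 h. In that reading anxa2a stood at 0.61, -0.62 and -0.48 and anxa1a probe 1 at -0.72, -1.18 and -1.64, and the sign also turned for anxa13l (-0.55), anxa1c probe 1 (-0.79), anxa2b (0.95), anxa5b probe 2 (-0.39), anxa4 probe 2 (-0.83) and anxa6 probe 1 (-0.10). At 168 h 5 probes were called without background correction and 1 with median centring, and 0 to 10 with 1 array left out (10 without 168 h array 1, 1 without 3 h array 2). Without background correction anxa13l stood at 0.31, anxa1c probe 1 at 0.19, anxa5b probe 2 at 0.50, anxa4 probe 2 at 0.52 and anxa6 probe 1 at 0.26. No other annexin probe was called in these settings. Loess within print blocks, an alternative chosen after seeing the data, changed no call.

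With 1 array left out, anxa2a ranged over -0.67 to 0.18, 0.75 to 1.64 and 1.16 to 1.57 at the successive times and anxa1a probe 1 over -0.32 to 0.46, 0.01 to 0.88 and 0.47 to 1.25. The dye effect ranged over -1.23 to -0.83 for anxa1a and -0.14 to 0.31 for anxa2a (-0.14 without 3 h array 3), and 1 to 3 annexin probes showed one. With a control array left out, sham over unoperated had 89 to 125, 89 to 116 and 87 to 118 calls, and without a dye term 1 at 168 h. The causes were not tested. A block for scan date or slide was not run, since the headers give none. Each array sets 1 injured pool against 1 sham pool, and the log2 ratio uses this pairing. No further pairing was possible because the labels number no pools. Dim probes limit the rest: anxa1a probes 2 and 3 were near the empty positions.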
